A study of Mus musculus with 16 samples.

Results

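Liver long non-coding RNA was compared between mice on high-fat feed and mice on ordinary feed. All animals were C57BL/6J mice, called wild type in the series title, and their labelled age is postnatal day 21, with no word on whether this is the age at sampling or at the start of feeding. The comparison takes the 4 libraries whose diet label is high-fat feed and the 4 whose label is ordinary feed, 8 of the 16 libraries in the series. The other 8 are livers on the same high-fat feed from mice also given a drug by gavage. The drug was resveratrol (100 mg/kg daily) in 4 and metformin (200 mg/kg daily) in 4. In the comparison these 8 entered only the estimate of spread, the filter on low values and the scaling between libraries. The labels of the high-fat and ordinary groups name no gavage, so drug and gavage cannot be told apart. The labels name no fat content, sex, cage or litter, and they do not say that each library is a separate animal. The titles of the 4 high-fat libraries share 1 prefix that no ordinary-feed title has, and a difference that this prefix marks, if any, cannot be told apart from the diet. Libraries are numbered 1 to 4 within a group in the order of the samples, and those on ordinary feed are called ordinary libraries.

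The liver takes up dietary fat, makes fatty acids and triglycerides when insulin is high, and makes glucose and breaks down amino acids when insulin is low. Long non-coding RNAs are transcripts with no known protein product. Many lie in or beside genes of these pathways, where they can be read from the gene's own promoter, an enhancer or the gene's unspliced transcript. Levels are given in FPKM, the reads on a transcript divided by its length and by the library's total. A feature is a transcript of the NONCODE catalogue, an assembled transcript, or an Ensembl gene with its transcripts summed. The 7413 features with at least 1 FPKM in at least 4 of the 16 libraries were tested, out of 49988. Features were placed by position alone, so a coding gene named beside a feature gives its place. How reads were assigned, and whether strand was used, is not stated, so reads of the feature and of the gene cannot be told apart. Likewise, in whole liver, fewer cells of a type and less RNA per cell cannot be told apart.

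The 16 libraries held 17.2 to 31.1 M reads, of which 15.7% to 23.6% fell on the listed transcripts. High-fat library 4 differed from the rest. Reads at the locus of ribosomal RNA were 22.6% of those on listed transcripts in it, and 10.0% to 14.2% in the 7 other libraries compared, and 4274 features reached 1 FPKM in it against 5508 to 6468. Its Pearson correlations with the other high-fat libraries, across features, were 0.776 to 0.822, while those 3 correlated with each other at 0.873 to 0.894. The median ratio of a library's features to the mean library was 1.08 to 1.15 on ordinary feed and 0.691 to 1.05 on high-fat feed (exact permutation p = 0.0286, the smallest that 4 against 4 allows, and 0.0857 adjusted over 6 library measures). The RNA of the signal recognition particle, 7SL, took 45.5 ± 2.81% of listed reads on ordinary feed and 53.8 ± 3.14% on high-fat feed (SD, n = 4 each), with the same exact permutation p of 0.0286 and adjusted value of 0.0857. Because these measures move with the diet groups, calls were made in 4 settings: FPKM as deposited, FPKM divided by the median ratio (scaled), and each of these without high-fat library 4. Counts over all features are given in each, and other counts as deposited unless a setting is named. Their part in the differences was not tested.

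As deposited, 1085 of 7413 features were called (14.6%), which means a limma adjusted p under 0.05 over all 7413. High-fat feed was higher at 210 (2.83%) and lower at 875 (11.8%). The median log2 change of all features, on the log2(FPKM + 1) scale of high-fat minus ordinary feed, was -0.16. Scaling removed that shift, to a median of 0.00, and turned the balance: 813 features were called (11.0%), 447 higher (6.03%) and 366 lower (4.94%). Without high-fat library 4 the deposited values gave 605 calls (8.16%), 183 higher (2.47%) and 422 lower (5.69%). With both changes there were 531 (7.16%), 311 higher (4.20%) and 220 lower (2.97%). No feature was called in opposite directions between the deposited values and any of the other 3 settings.

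**Figure D1:**
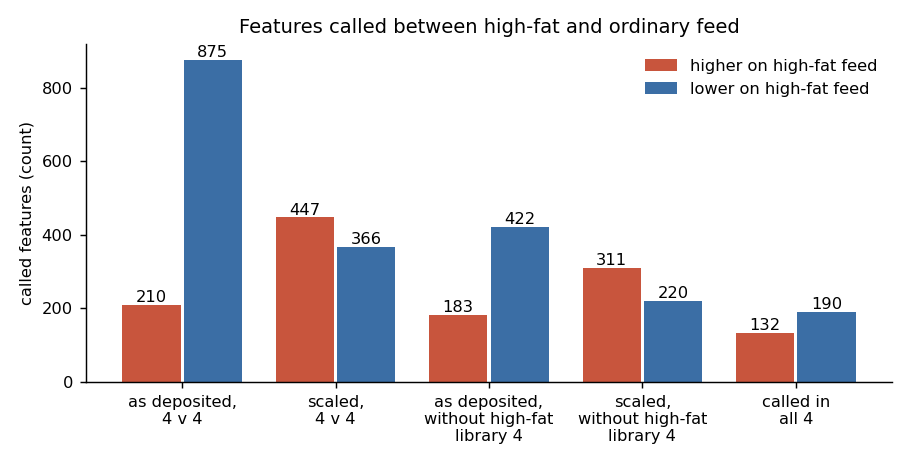
Bars give the count of called features, higher (red) and lower (blue) on high-fat feed, in each of the 4 settings and among the features called in all 4. The lower calls outnumber the higher ones in both settings with deposited values and not in the scaled ones, while 132 higher and 190 lower features are called in every setting.

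A set of 322 features (4.34%) was called in the same direction in all 4 settings, 132 higher (1.78%) and 190 lower (2.56%). These were 62.9% of the higher calls of the deposited values and 21.7% of the lower ones. Their median log2 change was 0.87 for the higher and -0.74 for the lower features, and the smallest changes among them were 0.38 and -0.40. A change of at least 1 was found at 50 higher and 59 lower ones. In 299 of the 322 the 4 values of one group lay above all 4 of the other, against 1551 of all 7413 features (20.9%), 270 with the high-fat values above (3.64%) and 1281 below (17.3%). The 322 were called on these same values, so a high share among them was built in. The 15 highest and 15 lowest features named below were chosen from the 299, so their lack of overlap was set by the choice. Leaving out each of the 8 libraries in turn kept the call at 265 of the 322 (3.57% of all features), 77 higher and 188 lower. The 322 fell into 247 of 4330 runs of neighbouring features no more than 20 kb apart. Higher ones lay in 100 of those runs and lower ones in 147, and no run held both.

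**Figure D2:**
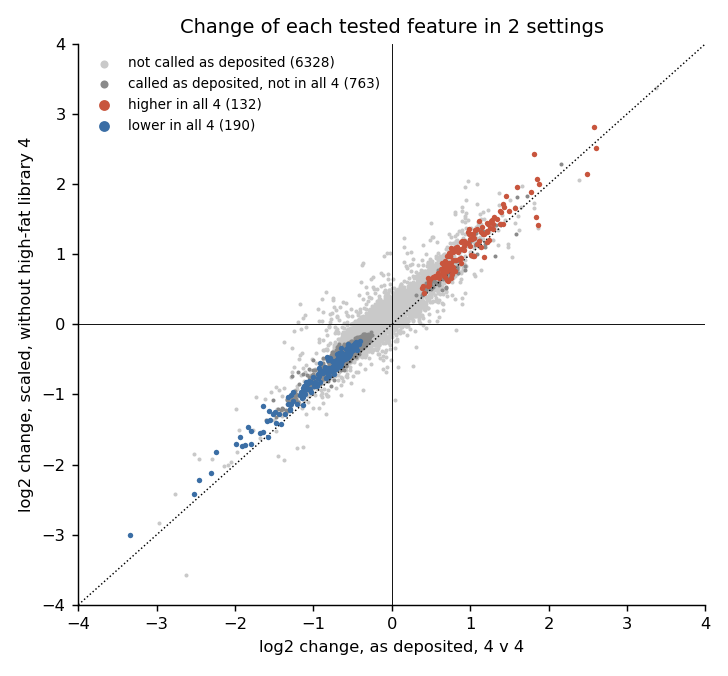
Each point is a tested feature, with its log2 change as deposited on the x axis and its log2 change after scaling and without high-fat library 4 on the y axis. The 132 features higher in all 4 settings (red) and the 190 lower (blue) lie on the same side of 0 on both axes, and most points lie above the dotted line of equal change.

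Among features that fell in all 4 settings, several lay at genes of glucose production and amino acid breakdown. Pck1 makes phosphoenolpyruvate, the committed step of glucose synthesis from lactate and amino acids. All 6 features tested within 5 kb of Pck1 fell, 4 of them in all 4 settings, but every pair of the 6 overlaps, so they share reads and are close to 1 measurement. They lie upstream of the gene, between chr2:173140323-173148687 (GRCm38). Their near ends are 4.36 to 4.94 kb from it, just inside the 5 kb limit. NONMMUT041549.2 was at 2.31, 2.38, 2.52 and 2.25 FPKM in ordinary libraries 1 to 4, and at 0.0802, 0.456, 0.0398 and 0.571 in high-fat libraries 1 to 4. The groups did not overlap, and the log2 change was -1.41 (SE 0.15, limma adjusted p = 0.000238). NONMMUT041556.2 changed most of the 6, from 2.97 ± 0.267 to 0.310 ± 0.377 FPKM (SD, n = 4; log2 change -1.64, SE 0.33, limma adjusted p = 0.00874). High-fat libraries 2 and 4 were the highest of their group at NONMMUT041549.2.

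A Cps1, an Hdc and a Gpt feature fell as well. Cps1 starts the urea cycle, which disposes of the nitrogen of amino acids. The multi-part feature NONMMUT001352.2, whose interval overlaps Cps1, was at 0.276, 4.27, 2.34 and 2.52 FPKM on ordinary feed and at 0.140, 0.153, 0.208 and 0.145 on high-fat feed. Ordinary-feed library 1 lay just above the high-fat values, and the groups did not overlap (log2 change -1.36, SE 0.30, limma adjusted p = 0.0126). Its call was lost when the fit held the 8 libraries alone. Hdc turns histidine into histamine. NONMMUT146430.1, a multi-part feature that overlaps Hdc (chr2:126591782-126595454), was at 22.2, 12.7, 24 and 14.9 FPKM on ordinary feed and at 3.44, 6.00, 4.79 and 2.28 on high-fat feed. All 4 high-fat values were under the lowest ordinary one (log2 change -1.94, SE 0.25, limma adjusted p = 0.00101). The Gpt feature just upstream of alanine aminotransferase changed by -0.62 (SE 0.17, limma adjusted p = 0.0289), a call lost with scaling and without high-fat library 3 or 4 or ordinary library 1 or 2. In all, 9 of 19 features at the genes listed for glucose synthesis and amino acid breakdown fell (11.8% of all features did), 6 of them in all 4 settings (2.56% of all), and none rose. Their median log2 change was -0.55, against -0.16 for all features, and 6 of the 9 are the overlapping ones at Pck1. Features at Fbp1, which acts late in glucose synthesis (0.50, SE 0.33, limma adjusted p = 0.307), and Pcx, which acts early (-0.47, SE 0.20, limma adjusted p = 0.117), did not pass.

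Igfbp2 and Gm15441 were the lower features at genes of insulin and growth factor signalling. Igfbp2 binds insulin-like growth factors in the circulation. Its intronic feature NONMMUT001470.2 (chr1:72832881-72834402) was at 14.1, 18.4, 18.7 and 10.8 FPKM on ordinary feed and at 2.00, 3.93, 1.15 and 1.29 on high-fat feed. The lowest ordinary value was above the highest high-fat value, and the log2 change of -2.47 (SE 0.37, limma adjusted p = 0.00247) stayed at -2.21 with scaling and without high-fat library 4 (limma adjusted p = 0.0117). Gm15441 is transcribed from the minus strand across Txnip, a gene on the plus strand that responds to glucose and limits its uptake. It was at 30.3, 5.54, 36.2 and 24.5 FPKM on ordinary feed and at 2.16, 5.11, 3.39 and 2.85 on high-fat feed. Ordinary-feed library 2 was low and close to high-fat library 2, though the groups did not overlap (log2 change -2.30, SE 0.47, limma adjusted p = 0.00926). Nearly all of this came from 1 transcript, ENSMUST00000107095, at 5.31 to 35.8 FPKM on ordinary feed, while the other listed transcript reached at most 0.616 FPKM in any of the 16 libraries. That transcript is 1653 bases long, and 606 of its bases (36.7%) lie in exons of Txnip on the other strand. Without a stated strand setting, reads from Txnip messenger RNA may count there. The first 150 bases, from GENCODE release 21, are shown because they pass from the first exon, which lies beyond Txnip, into the shared sequence; the 47 bases opposite a Txnip exon are in capitals.
Gm15441: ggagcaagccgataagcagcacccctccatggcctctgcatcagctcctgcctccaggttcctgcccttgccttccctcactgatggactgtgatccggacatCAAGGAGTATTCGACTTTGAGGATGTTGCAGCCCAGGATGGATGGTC
The second feature linked to Txnip, NONMMUT044301.2, was at 1.43 FPKM on ordinary feed and 1.30 on high-fat feed (log2 change -0.02, SE 0.23).

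At genes of fatty acid breakdown and handling, a pair of overlapping features upstream of Acnat1 fell in all 4 settings. Acnat1 belongs to a family of peroxisomal enzymes that join fatty acids to amino acids. NONMMUT047231.2, 4.47 kb upstream of it (chr4:49478386-49481012), was at 11.0, 13.1, 14.6 and 10.6 FPKM on ordinary feed and at 3.02, 2.89, 2.25 and 1.49 on high-fat feed. The spread within each group was small next to the gap, and the log2 change was -1.98 (SE 0.23, limma adjusted p = 0.000464). The third Acnat1 feature, NONMMUT047227.2, was level, at 34.1 and 34.9 FPKM (log2 change 0.01, SE 0.18). Of 15 features on the fatty acid oxidation list, 3 fell and 1 rose, against 11.8% and 2.83% of all features, with a median of -0.37. The Ppara feature that fell, NONMMUT024512.2, changed by -0.71 (SE 0.22, limma adjusted p = 0.0419), a call lost with scaling, without any 1 of the ordinary libraries and without high-fat library 2, 3 or 4. The other Ppara features were not called. The most abundant, NONMMUT024514.2, was at 65.4 and 79.2 FPKM (log2 change 0.27, SE 0.21), and NONMMUT144136.1 and NONMMUT024511.2 changed by 0.19 (SE 0.38) and -0.58 (SE 0.20).

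Some features went from clearly present to nearly absent. NONMMUT010559.2, in the 3′ UTR of the kinetochore gene Mis12, was at 4.57, 4.67, 6.36 and 7.59 FPKM on ordinary feed and at 0.211, 0.137, 0.163 and 0.121 on high-fat feed. Every high-fat library was far under every ordinary one (log2 change -2.53, SE 0.26, limma adjusted p = 0.000171). NONMMUT001706.2, in the 3′ UTR of Agfg1, a gene of vesicle transport, was at 2.42, 2.35, 2.73 and 3.52 FPKM and then at 0.0908, 0.112, 0.0360 and 0.0563. It had the lowest adjusted p of the named features (log2 change -1.80, SE 0.12, limma adjusted p = 1.78e-06). In the drug-treated livers on high-fat feed the Mis12 feature was at 2.45 to 8.90 FPKM in all 8 libraries, and the Agfg1 feature at 0.0647 to 0.140.

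The remaining lower features with large changes lay at genes of varied function. NONMMUT011310.2, upstream of the helicase gene Dhx40, was at 35.9, 227, 168 and 33.6 FPKM on ordinary feed and at 9.26, 6.21, 10.4 and 4.53 on high-fat feed. Its ordinary-feed values fell into a high and a low pair, all above the high-fat ones (log2 change -3.34, SE 0.76, limma adjusted p = 0.0136). NONMMUT029447.2, downstream of H2-Q10, a liver histocompatibility gene, was at 69.7 to 111 FPKM and then at 9.74 to 30.2 (log2 change -2.24, SE 0.46, limma adjusted p = 0.00937). NONMMUT123262.1, upstream of Slco1a4, an importer of bile acids and other organic anions, went from 10.5 ± 3.67 to 2.22 ± 0.965 FPKM (log2 change -1.83). The others of the 15 lower features chosen by size were at Map4k4, Clpx, Olfr9 and Fam13a and at Gm11832, with log2 changes of -1.92, -1.80, -1.65, -1.59 and -1.88.

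Features that rose included several at receptors and kinases of growth and insulin signalling. Egfr is the receptor of epidermal growth factor. NONMMUT008655.2, which covers the end of the first exon and the start of the first intron (chr11:16752342-16755821), was at 9.08, 10.0, 9.26 and 19.3 FPKM on ordinary feed and at 41.9, 73.7, 80.9 and 120.2 on high-fat feed. Ordinary-feed library 4 was the highest of its group, and its title prefix differs from that of the other 3. The groups did not overlap, which was a condition for the 15 highest (log2 change 2.61, SE 0.59, limma adjusted p = 0.0138). The shorter NONMMUT008654.2, which starts 28 bases after the annotated start site, was at 0.497, 0.706, 0.545 and 2.51 FPKM and then at 3.20, 8.0, 6.13 and 5.21 (log2 change 1.73, SE 0.50, limma adjusted p = 0.0334). Its call, and that of NONMMUT008656.2 further into the intron (log2 change 2.16, SE 0.58, limma adjusted p = 0.0269), was lost with the omission of any 1 among ordinary libraries 1, 2 and 3 and high-fat libraries 2, 3 and 4. NONMMUT008654.2 and NONMMUT008655.2 overlap and can share reads. Of 5 features linked to Egfr, NONMMUT008652.2 (0.20, SE 0.24, limma adjusted p = 0.579) and NONMMUT008657.2 (1.57, SE 0.64, limma adjusted p = 0.107) were not called.

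Because the features begin at the start of Egfr, its promoter is printed below. That of Onecut1, a liver transcription factor with 2 of its 3 linked features called higher, follows it. The last window is that of 1810058I24Rik, an Ensembl gene listed here as non-coding. Each window runs from 250 bases before to 50 bases after the start site on the plus strand (RefSeq, GRCm38.p6), and the bases inside the listed feature are in capitals.
Egfr, chr11:16751953-16752252: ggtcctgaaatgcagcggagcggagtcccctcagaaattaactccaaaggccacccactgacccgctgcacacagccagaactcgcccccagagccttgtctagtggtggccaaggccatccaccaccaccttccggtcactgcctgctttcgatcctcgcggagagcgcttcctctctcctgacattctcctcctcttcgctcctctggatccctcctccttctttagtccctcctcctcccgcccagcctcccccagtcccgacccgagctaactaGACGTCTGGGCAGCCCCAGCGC
Onecut1, chr9:74861671-74861970: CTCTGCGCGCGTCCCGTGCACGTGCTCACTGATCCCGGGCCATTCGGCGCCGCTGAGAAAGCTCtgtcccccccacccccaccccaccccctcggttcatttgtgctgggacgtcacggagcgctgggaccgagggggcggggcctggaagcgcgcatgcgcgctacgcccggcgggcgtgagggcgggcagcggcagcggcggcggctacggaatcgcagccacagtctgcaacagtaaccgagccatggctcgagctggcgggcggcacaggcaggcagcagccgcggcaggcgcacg
1810058I24Rik, chr6:35252460-35252759: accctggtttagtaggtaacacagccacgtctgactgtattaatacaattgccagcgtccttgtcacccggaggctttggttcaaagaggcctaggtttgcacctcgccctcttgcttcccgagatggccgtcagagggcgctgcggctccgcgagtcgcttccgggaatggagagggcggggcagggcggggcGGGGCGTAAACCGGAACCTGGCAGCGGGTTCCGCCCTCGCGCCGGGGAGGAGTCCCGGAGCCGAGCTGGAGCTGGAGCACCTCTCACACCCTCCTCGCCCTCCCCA
The capitals show that the Egfr feature takes the last 22 bases of its window, downstream of the start, while the Onecut1 feature takes the first 64 and ends 187 bases before the start. The gene 1810058I24Rik begins inside its own window and takes the last 106 bases. On either strand, the E-box CACGTG is in the Onecut1 window and neither of the others, and in 7.15% of 32851 windows of this length. The TATA box TATAAA, in 13.6% of all windows, and the forkhead motif TGTTTAC, in 3.65%, are in none of the 3.

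Other features of the insulin and growth factor list rose as well. Ghr is the growth hormone receptor, and its intronic feature NONMMUT022585.2 went from 3.67 ± 1.09 to 7.91 ± 1.85 FPKM (log2 change 0.94, SE 0.24, limma adjusted p = 0.0221). At Lifr, the receptor of leukaemia inhibitory factor, the 3′ UTR feature NONMMUT022666.2 went from 21.0 ± 3.73 to 35.3 ± 6.20 FPKM (log2 change 0.72, SE 0.19, limma adjusted p = 0.0264). The Ghr call was lost without ordinary library 3 or high-fat library 3, and the Lifr call without ordinary library 1 or 3 and without high-fat library 2 or 3. Of 5 features linked to Ghr, with log2 changes of 0.49 to 0.94, only NONMMUT022585.2 was called as deposited. Of 31 features on this list, 7 rose and 2 fell as deposited, where 2.83% of all features rose and 11.8% fell, and the median log2 change was 0.43, against -0.16 for all features. The higher calls numbered 17 with scaling (6.03% of all features rose there), 5 without high-fat library 4 (2.47%) and 14 with both changes (4.20%), and 5 were called in all 4 settings. The 2 lower calls were made in each setting. The 7 lie at only 4 genes, 3 of them at Egfr. The higher calls that scaling added to these lie at Pik3r1, Ghr and Igfbp4 only, most of them at Pik3r1. Features at Insr, the insulin receptor (-0.20, SE 0.16), Irs1 (0.89, SE 1.01) and Igf1 (NONMMUT006717.2, 1.61, SE 0.63, limma adjusted p = 0.0954) did not pass.

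**Figure D3:**
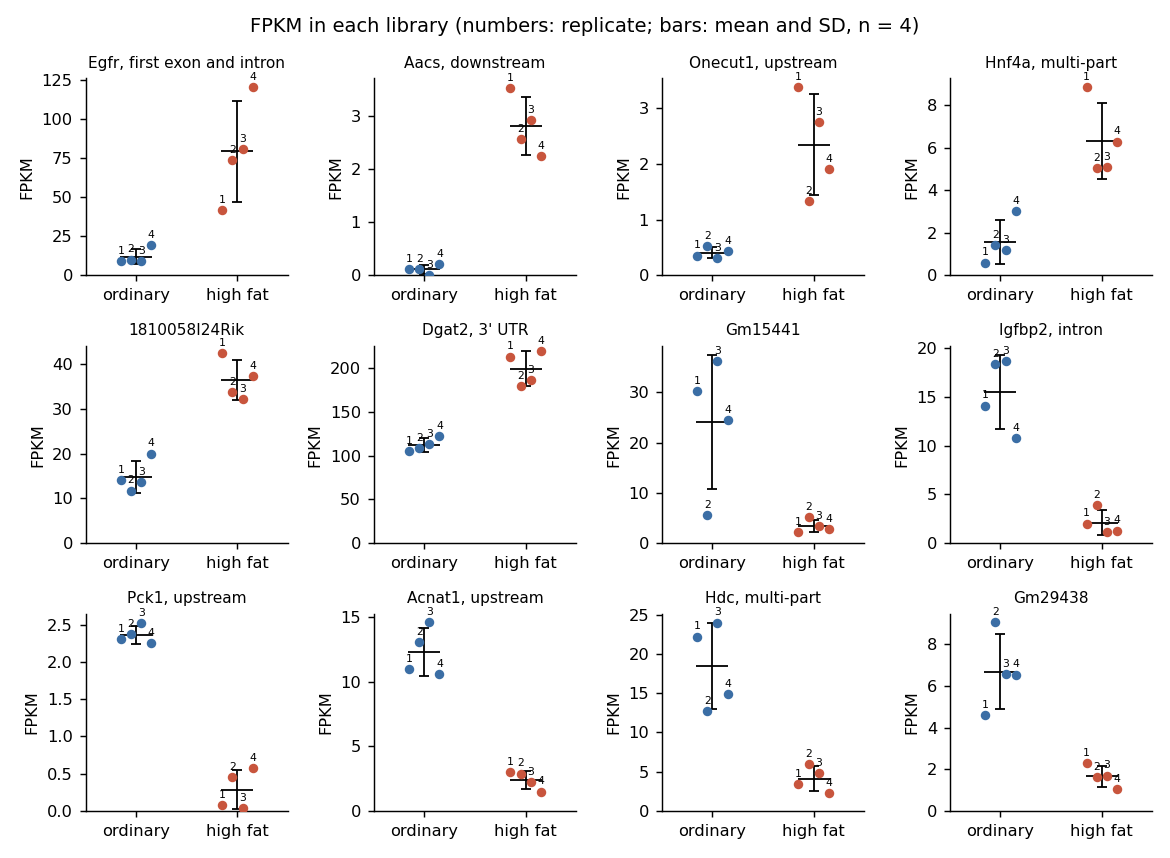
FPKM of 12 features in each of the 8 libraries, ordinary feed in blue and high-fat feed in red; numbers mark the replicate, and bars give the mean and SD (n = 4). In all 12 panels, chosen for such separation, the 4 points of one group lie above the 4 of the other; at Gm15441 ordinary library 2 is at 5.54 and high-fat library 2 at 5.11.

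Lipid synthesis genes showed a narrow change, at Aacs above all. Aacs activates acetoacetate in the cytosol for the synthesis of fatty acids and cholesterol. Its 3 linked features do not overlap each other, and all rose in all 4 settings and in every leave-one-out fit. NONMMUT149179.1, 4.06 kb downstream of Aacs (chr5:125521473-125522446), was at 0.119, 0.12, 0.00 and 0.204 FPKM on ordinary feed and at 3.53, 2.57, 2.92 and 2.25 on high-fat feed. It was near 0 in every ordinary library and present in every high-fat one (log2 change 1.77, SE 0.27, limma adjusted p = 0.00254). NONMMUT119417.1 and NONMMUT119418.1, which overlap the gene, changed by 1.87 (SE 0.33) and 1.5 (SE 0.27). The neighbouring NONMMUT149177.1, between Bri3bp and Aacs, was at no more than 0.148 FPKM on ordinary feed and at 0.672 to 2.61 on high-fat feed (log2 change 1.29, SE 0.24, limma adjusted p = 0.00651). At the other 11 features of the fatty acid synthesis list nothing was called in any of the 4 settings. Among these, the Scd1 feature, at the main liver desaturase, was at 1798 and 1778 FPKM (log2 change -0.08, SE 0.63), and that of Fasn, fatty acid synthase, changed by 0.73 (SE 0.50, limma adjusted p = 0.328).

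At triglyceride and cholesterol genes the calls held in all 4 settings were rises. Dgat2 adds the last fatty acid to a triglyceride, and its 3′ UTR feature NONMMUT062889.2 was at 105, 108, 113 and 122 FPKM on ordinary feed and at 213, 179, 186 and 219 on high-fat feed. No values overlapped (log2 change 0.82, SE 0.18, limma adjusted p = 0.0124), whereas the second Dgat2 feature, NONMMUT062890.2, changed by -0.22 (SE 0.27). The 3′ UTR feature of Stard4, a carrier of cholesterol between membranes, was at 7.0 to 10.4 FPKM and then at 17.8 to 25.7 (log2 change 1.31, SE 0.21, limma adjusted p = 0.00301). Insig2 holds back sterol synthesis, and its 3′ UTR feature NONMMUT002394.2 was at 181, 196, 236 and 158 FPKM and then at 87.9, 106, 115 and 34.4. High-fat library 4 was the lowest there, and the call (log2 change -1.28, SE 0.34, limma adjusted p = 0.0257) was lost after scaling without that library, at -0.74 (limma adjusted p = 0.0875). It was also lost without ordinary library 2 or 3. Of 13 cholesterol features 2 rose and 4 fell as deposited (2.83% and 11.8% of all features), and only the 2 that rose were called in all 4 settings. Of 14 triglyceride features 1 rose, in all 4 settings, and 1 fell as deposited only, Gm47976 at Agpat3 (log2 change -0.45, limma adjusted p = 0.0461). That call was lost with scaling, without high-fat library 2, 3 or 4 and without any 1 of the ordinary libraries.

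At genes of liver transcription factors 4 of 40 features rose (2.83% of all features did), all of them in all 4 settings, and 2 fell (11.8% of all), neither in all 4. With scaling 7 rose and none fell, and with scaling and without high-fat library 4 these were 8 and none. Their median log2 change, -0.16, equalled that of all features. Upstream of Onecut1, NONMMUT153838.1 (chr9:74853340-74861004) was at 0.355, 0.529, 0.311 and 0.434 FPKM on ordinary feed and at 3.38, 1.33, 2.75 and 1.91 on high-fat feed. It is adjacent to NONMMUT153839.1, whose end is in capitals in the Onecut1 window above. That one was at 0.304 to 0.621 FPKM and then at 1.52 to 3.17, and the log2 change of each was 1.21 (SE 0.25 and 0.26, limma adjusted p = 0.00910 and 0.0121). High-fat libraries 1 and 3 were the highest at both. The other feature linked to Onecut1, ENSMUSG00000093662, was not called (log2 change 0.28, SE 0.77, limma adjusted p = 0.830). Hnf4a is a nuclear receptor that maintains hepatocyte identity. The assembled transcript MSTRG.25288.3, which overlaps Hnf4a (chr2:163514694-163519613), was at 0.593, 1.41, 1.18 and 3.01 FPKM and then at 8.85, 5.03, 5.08 and 6.29 (log2 change 1.57, SE 0.34, limma adjusted p = 0.0117). The other Hnf4a feature, NONMMUT110086.1, was not called (log2 change 0.27, SE 0.16, limma adjusted p = 0.267). Near Foxa2, which opens liver enhancers, a run of 25 features spanned 104 kb (chr2:147936506-148040248). Of these 12 rose (2.83% of all features did), 11 of them in all 4 settings (1.78% of all), with a median of 1.02 over the 25. The run was named because it is among those with the most calls. The one with the largest change, NONMMUT147075.1, lies 73.5 kb downstream of Foxa2 and was at 2.32, 2.12, 0.992 and 1.83 FPKM and then at 4.67, 8.45, 7.85 and 4.97 (log2 change 1.40, SE 0.34, limma adjusted p = 0.0168). Its call was lost without ordinary library 3. The 3 features within 5 kb of Foxa2 itself did not pass as deposited, with log2 changes of 0.42, 0.45 and 0.71. With scaling the last of these, NONMMUT147094.1, was called (log2 change 0.98, limma adjusted p = 0.0191) and the others were not.

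Other features of the 15 with the largest rises lay away from the lists, among them NONMMUT031874.2 at the start of Nrep, which went from 0.171 ± 0.0858 to 3.57 ± 2.04 FPKM (log2 change 1.85, SE 0.29). NONMMUT003114.2 is an intergenic multi-part transcript (chr1:151138185-151143841), 38.7 kb from the nearest coding gene. It was at 1.60, 2.69, 2.27 and 2.76 FPKM on ordinary feed and at 28.6, 10.3, 28.8 and 14.1 on high-fat feed. Libraries 1 and 3 were the highest on high-fat feed, and the groups were far apart (log2 change 2.58, SE 0.35, limma adjusted p = 0.00105). NONMMUT046576.2, in an intron of Bach2, a transcription factor of lymphocytes, went from 0.745 ± 0.410 to 3.78 ± 1.54 FPKM (log2 change 1.42, SE 0.27, limma adjusted p = 0.00623). NONMMUT067813.2, in an intron of Nrp1, a co-receptor of vascular growth factors and semaphorins, went from 1.41 ± 0.548 to 5.70 ± 2.18 FPKM (log2 change 1.44, SE 0.34, limma adjusted p = 0.0153). At MSTRG.16066.11, which overlaps Zc3h7a, and NONMMUT029339.2, downstream of Stk19, single libraries stood out. The first was at 7.12 FPKM in ordinary library 1, against 0.668 to 0.851 in the other 3 and 7.94 to 34.9 on high-fat feed. The second was at 17.3 FPKM in high-fat library 4, against 3.07 to 3.47 in the other 3 and 0.484 to 1.06 on ordinary feed. Both stayed called in all leave-one-out fits, with log2 changes of 2.15 and 1.41 after scaling and without high-fat library 4.

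Of 899 tested Ensembl genes, listed as non-coding, 24 rose (2.67%) and 97 fell (10.8%), close to the 2.83% and 11.8% of all features. In all 4 settings 13 rose (1.45%) and 24 fell (2.67%), against 1.78% and 2.56% of all. The gene 1810058I24Rik, whose promoter is shown above, was at 14, 11.7, 13.7 and 20 FPKM on ordinary feed and at 42.4, 33.8, 32.2 and 37.3 on high-fat feed. The groups were well apart (log2 change 1.26, SE 0.20, limma adjusted p = 0.00301). Whether this gene, listed as non-coding, encodes a protein was not checked. Mup-ps14 and Mup-ps12 are pseudogenes of the major urinary proteins, secreted carriers of pheromones, and their near-identical copies make the values uncertain. Mup-ps14 was at 0.00 to 0.220 FPKM on ordinary feed and at 3.65, 2.66, 3.04 and 0.600 on high-fat feed, with high-fat library 4 the lowest (log2 change 1.59, SE 0.27, limma adjusted p = 0.00430). The intergenic gene 9030619P08Rik was at 0.638 to 1.09 FPKM and then at 6.38, 4.24, 5.57 and 1.81 (log2 change 1.46, SE 0.31, limma adjusted p = 0.0115). Gm11963, 15 kb upstream of Xbp1, a factor of the secretory pathway, rose by 1.17 (SE 0.24), with 6.20 FPKM in high-fat library 4 against 2.06 to 2.65 in the other 3. Gm27216 and 1700018L02Rik rose by 1.13 (SE 0.24) and 1.04 (SE 0.22). Adh6-ps1, Gm42047 and BC049987 were called as deposited, but the calls were lost without high-fat library 4 and without most of the other libraries in turn.

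On the lower side, Gm29438, in an intron of St3gal5, was at 4.61, 9.05, 6.56 and 6.54 FPKM on ordinary feed and at 2.30, 1.62, 1.69 and 1.06 on high-fat feed. Its groups did not overlap, and its call held in every alternative in which Ensembl transcripts were summed by gene (log2 change -1.52, SE 0.18, limma adjusted p = 0.000592). Gm43359, in an intron of the calcium pump gene Atp2a2, went from 11.0 ± 2.07 to 4.51 ± 1.11 FPKM (log2 change -1.13, SE 0.22, limma adjusted p = 0.00858). Gm38357, in an intron of Noct, a gene of daily rhythm, was at 6.07, 8.73, 8.06 and 23.7 FPKM and then at 2.09 to 4.60. Ordinary-feed library 4 stood far above the rest, and the call (log2 change -1.48, SE 0.46, limma adjusted p = 0.0451) was lost without it, without ordinary library 2 or 3, without high-fat library 2, 3 or 4, and with scaling. Gm43314, in an intron of Cth, which makes cysteine, changed by -1.42 (SE 0.33) and was not called after scaling without high-fat library 4. Gm15835, over Cdip1, changed by -1.04 (SE 0.22). Gm20427, over Slc39a7, changed by -1.35 (SE 0.43) with overlapping groups, and its call was lost in most alternatives.

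Well-known non-coding RNAs mostly did not pass. Malat1 was at 7.62 to 10.9 FPKM on ordinary feed and at 10.0, 72.1, 11.7 and 3.05 on high-fat feed, with library 2 alone high (log2 change 0.51, SE 0.86, limma adjusted p = 0.709). Neat1, the scaffold of paraspeckles, was at 15.7 to 52.2 and at 11.6 to 25.8 FPKM (log2 change -0.61, SE 0.72, limma adjusted p = 0.583). Gas5, a host of small nucleolar RNAs, was at 26 ± 1.95 and 24 ± 4.03 FPKM (log2 change -0.12, SE 0.16, and 0.15 with scaling). None of the 10 host genes of this kind was called as deposited, and 1 was called with scaling alone, Snhg12 (log2 change 0.33, limma adjusted p = 0.0472). H19, Meg3 and Xist were under the filter, and Xist, the RNA of the inactive X chromosome, was at no more than 0.0174 FPKM in all 16 libraries. The 7SL gene Rn7s1 was at 206741 ± 29418 and 293658 ± 53488 FPKM, with overlapping groups. Its call (log2 change 0.50, SE 0.13, limma adjusted p = 0.0240) was lost without high-fat library 2 or 4 and without ordinary library 2, 3 or 4. Rpph1, the RNA of ribonuclease P, rose by 0.71 (SE 0.19, limma adjusted p = 0.0269) with high-fat library 4 at 15062 FPKM and the other 3 at 6778 to 8513. The Rpph1 call was lost without ordinary library 2, 3 or 4.

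**Figure D4:**
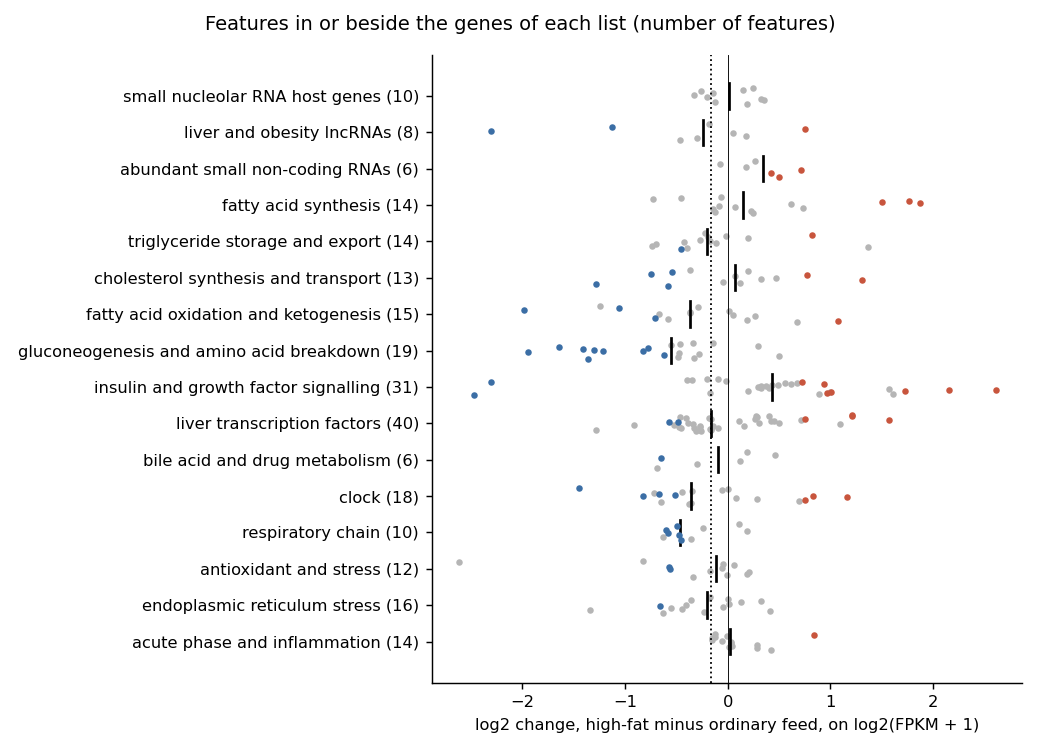
Each point is a feature linked to a gene of the named list, placed by its log2 change, with called features in red (higher) or blue (lower), black bars at list medians and a dotted line at the median of all features, -0.16. The gluconeogenesis list lies to the left with 9 lower calls of 19 (11.8% of all features fell), 6 of them overlapping features at Pck1. The insulin and growth factor list lies to the right with 7 higher of 31 (2.83% of all features rose), 3 of them at Egfr.

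At clock genes 3 of 18 features were called higher and 4 lower as deposited, where the shares of all features were 2.83% and 11.8%. The counts were 5 and 2 with scaling, 1 and 2 without high-fat library 4, and 2 and 1 with both changes, so the balance depended on the setting. In all 4 settings 1 was higher and 1 lower. Per3 and Clock belong to the loop of transcription factors and repressors that sets daily rhythm. The Per3 feature NONMMUT050749.2 was at 0.266, 0.268, 0.355 and 1.61 FPKM on ordinary feed and at 3.81, 1.57, 2.79 and 2.07 on high-fat feed. Ordinary-feed library 4 was in the range of the high-fat group, as it was at the second Per3 feature with 1.80 FPKM against 1.33 to 2.08. Without ordinary library 2 the first call (log2 change 1.16, SE 0.28, limma adjusted p = 0.0169) was lost. The intronic Clock feature NONMMUT052836.2 was at 3.07, 4.72, 3.68 and 2.86 FPKM and then at 1.54, 1.85, 1.72 and 1.17 (log2 change -0.82, SE 0.18, limma adjusted p = 0.0116). The 3 features linked to Clock do not overlap, and all 3 fell as deposited, the first of them in all 4 settings. The labels give no time of day for sampling.

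Lower calls on the lists of mitochondria and stress did not hold in all 4 settings. Of 10 features at respiratory-chain genes 5 fell as deposited (11.8% of all features did), 2 with scaling, 3 without high-fat library 4 and 1 with both changes. None was called in all 4 settings, and the median went from -0.46 to -0.32 after scaling and without high-fat library 4. The antioxidant list had 2 lower of 12, at Cat and Sod2, and the endoplasmic reticulum stress list 1 of 16, at Canx, while 11.8% of all features fell, and none was called in all 4 settings. With scaling neither list had a lower call, and features at Sod1 (2 of them) and Ern1 were called higher. Only 1 of 14 features of the acute phase list was called, at Hamp, which makes the iron hormone hepcidin (log2 change 0.84, SE 0.27, limma adjusted p = 0.0481). Its call was lost without high-fat library 1, 3 or 4 and without ordinary library 1, 2 or 3. Of 6 features on the bile acid and drug metabolism list 1 fell, at Cyp2f2, and not in all 4 settings.

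Markers of other liver cells are coding genes, read only through features in or beside them. No tested feature was linked to the 12 macrophage, 12 red cell, 12 lymphocyte or 8 pancreatic acinar genes, which says nothing of the coding genes themselves. The stellate list had 1 tested feature, at 1 of its 12 genes, and none was called. The endothelial list (2 of 12 genes), the biliary list (1 of 8) and the adipocyte list (1 of 8) had 3 features each, none called as deposited. With scaling and without high-fat library 4, 1 of the 3 endothelial features was called higher (4.20% of all features rose there). The part of these cell types in the results was not tested. The summed level of the endothelial features was 14.1 to 29.6 FPKM on ordinary feed and 5.58 to 31.1 on high-fat feed, and that of the biliary ones 3.91 to 5.56 and 3.03 to 3.97. The 5 hepatocyte features summed to 55.9 to 89.2 and 59.7 to 96.0 FPKM. One of these rose as deposited, at Serpina1c, a gene with near-identical copies, and that at Cps1 fell.

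Counts by position are given without a test, since neighbouring features are not independent. In all 4 settings, where 1.78% of all features rose and 2.56% fell, 25 of 2822 intronic features rose (0.886%) and 102 fell (3.61%). Of 1606 intergenic ones 61 rose (3.8%) and 32 fell (1.99%). In 3′ UTRs 8 were higher and 9 lower of 1042, in multi-part features over coding genes 24 and 27 of 1127, and in partly exonic ones 10 and 20 of 718. The median log2 change as deposited was -0.22 for intronic and -0.06 for intergenic features. Scaled and without high-fat library 4 these medians were -0.05 and 0.08. The share called also varied with depth: 9.13% of features with a mean under 30 reads per library were called as deposited, 14.2% from 30 to 100, 21.5% from 100 to 300 and 13.8% above. For calls in all 4 settings the shares were 3.34%, 4.00%, 5.63% and 5.53%.

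Neighbouring features often moved together, so that counts of features overstate the number of loci. The runs named were chosen for the most called features, so high counts in them were set by the choice. Of all features 11.8% fell, and 2.56% fell in all 4 settings. The run at Eipr1 on chromosome 12 held 52 lower features of 88, only 2 of which were called in all 4 settings. At Ogfrl1 (chr1:23256286-23295392) 13 of 20 fell, 4 in all 4 settings, with a median log2 change of -0.79. All 8 features of a run at Rapgef2 and all 8 at Ptprd fell, 4 of each in all 4 settings, with medians of -0.54 and -0.80. The run from Ctcfl to Pck1 held 9 lower of 13, 7 of them in all 4. With only the 8 libraries in the fit, 32 of the 98 named features that were called lost their call, among them those at Lifr, Ppara, Insig2, Rn7s1, Rpph1 and Hamp. Without the filter on low values 60 did, those at Egfr, Dhx40, Hnf4a, Ghr and Dgat2 included.

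The features called in all 4 settings were also read in the drug-treated livers on high-fat feed. Those libraries were in neither group of the comparison, but they entered its estimate of spread, the filter on low values and the scaling between libraries. In the high-fat libraries, whose values chose them, the median log2 difference from the ordinary-feed mean was 0.63 to 1.06 over the 132 higher features and -1.0 to -0.65 over the 190 lower ones. With resveratrol the medians were 0.36 to 0.69 and -0.42 to -0.25, and with metformin 0.30 to 0.60 and -0.61 to -0.37. These differences share the ordinary libraries and are given side by side without a test. The intronic Igfbp2 feature was at 9.09 to 36.9 FPKM with resveratrol and 7.16 to 16.6 with metformin, against 1.15 to 3.93 on high-fat feed alone. Gm15441 was at 2.75 to 8.69 and 1.51 to 3.92 FPKM, against 2.16 to 5.11 on high-fat feed alone. The values of the Igfbp2 feature with either drug lay above those of high-fat feed alone, and the Gm15441 values overlapped them. The drugs were given by gavage, which cannot be told apart from the drugs here.

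**Figure D5:**
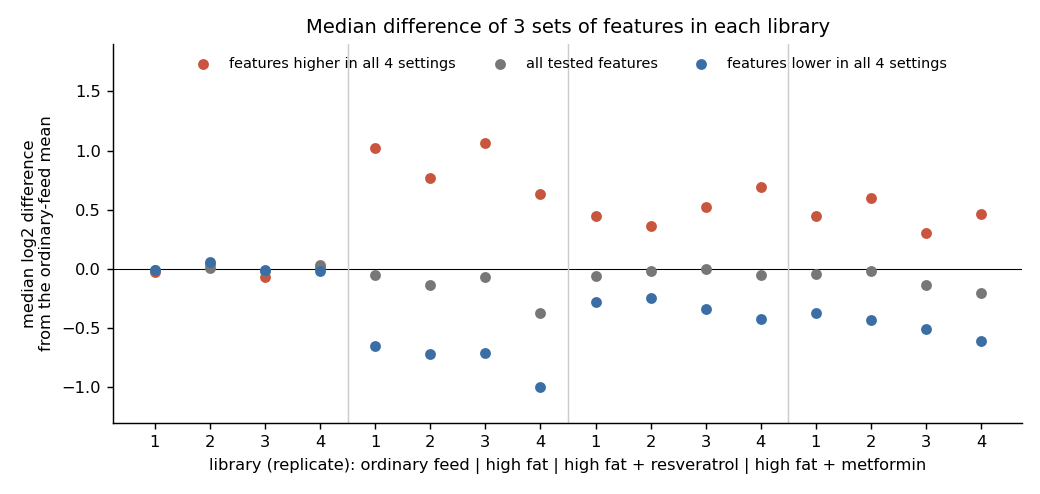
For each of the 16 libraries, points give the median log2 difference from the ordinary-feed mean over the 132 features higher in all 4 settings (red), the 190 lower (blue) and all 7413 (grey). High-fat libraries, which chose the features, lie at 0.63 to 1.06 and -1.0 to -0.65, drug-treated ones at 0.30 to 0.69 and -0.61 to -0.25, and high-fat library 4 has the lowest grey point, -0.37.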

How the data were processed

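Values are FPKM, computed by the authors for each transcript and deposited as 1 table per library; the aligner Bowtie 0.12.2, Cufflinks 2.1.1 and the GRCm38 build are named in the submitters' processing notes. For the annotation release, strand setting and filters: not given in the sources used here. Every value was a whole number of reads within 0.05 of a read, which gave library totals and reads per feature. FPKM of Ensembl transcripts was summed by GENCODE release 21 gene, and features were linked to coding genes they overlap or, if intergenic, lie within 5 kb of. Differences were fitted with limma 3.58.1 in R 4.3.3 on log2(FPKM + 1), with a mean-variance trend, in 1 fit of all 16 libraries (12 residual degrees of freedom, 11 without high-fat library 4), with Benjamini-Hochberg adjustment over 7413 features. The pseudocount of 1 understates changes of low features. The procedure was tested on simulated data with independent noise in each feature and library. Those data held no library-wide shift, no outlying library and no neighbours that share reads, so the test does not cover these. P-values measure the spread between these libraries, which may be technical. Named features were the 15 highest and 15 lowest called in all 4 settings without overlap (1 per run, mean of at least 1 FPKM in a group), the 10 highest and 10 lowest called Ensembl genes, called members of the 29 gene lists, 7 key RNAs and the 6 runs with most calls, apart from some that are not reported here. Features beyond these, such as list members that did not pass, were picked after their values were seen. The comparison, lists and rules were chosen with earlier results of these data known.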

Additional observations from a re-analysis of the deposited data

Results flagged for a closer look

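In groups of 4, a single library can lie far from the other 3. Chance marks about 1 in 20 groups by the gap used (Dixon's), and here 20 of 206 groups (9.71%) were marked.

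Ordinary library 4 stood out most often. It was far above its group at the Egfr features NONMMUT008655.2 (19.3 FPKM, others 9.08 to 10.0), NONMMUT008654.2 (2.51, others 0.497 to 0.706) and NONMMUT008656.2 (17.1, others 7.67 to 8.79). The same held at the Per3 features NONMMUT050749.2 (1.61, others 0.266 to 0.355) and NONMMUT050750.2 (1.80, others 0.104 to 0.311), at Gm38357 (23.7, others 6.07 to 8.73) and at the Aacs feature NONMMUT119418.1 (0.760, others 0.133 to 0.197). It was below its group at the Tcf7l2 feature NONMMUT035144.2 (2.79, others 3.54 to 3.58). Its title prefix differs from that of the other 3, and the part of this was not tested.

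Ordinary library 1 was high at the Zc3h7a feature MSTRG.16066.11 (7.12 FPKM, others 0.668 to 0.851) and at Gm47976 (3.79, others 2.12 to 2.28). Library 2 was high at Gm11832 (12.9, others 4.60 to 5.90) and at the Sdha feature NONMMUT018252.2 (3.02, others 2.23 to 2.31). Library 3 was the only one of its group with H19 reads (0.0600).

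High-fat library 4 was high at the Stk19 feature NONMMUT029339.2 (17.3 FPKM, others 3.07 to 3.47) and at Gm11963 (6.20, others 2.06 to 2.65). High-fat library 2 was high at Malat1 (72.1, others 3.05 to 11.7), Adh6-ps1 (30.3, others 16.6 to 18.5) and the Pck1 feature NONMMUT110312.1 (0.232, others 0.149 to 0.159). It also held the most reads, 31.1 M against 21.9 to 22.9. High-fat library 1 alone had H19 reads in its group (0.148 FPKM).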

How the results depend on the processing

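The count of 1085 called features was 531 with scaling and without high-fat library 4, 721 with quantile normalization, 274 without the filter (adjusted over 49988 features) and 449 with the 8 libraries alone. Leaving out 1 library gave 539 to 1181. Higher calls were 447 with scaling, 338 with quantile normalization, 74 without the filter and 108 with the 8 libraries alone, and 103 to 193 leaving out 1 library. Lower calls were 366, 383, 200 and 341 in the same order, 220 with scaling and without high-fat library 4, and 419 to 988 leaving out 1 library. The share of calls that were lower was 45.0%, 53.1%, 73.0% and 75.9%, then 41.4%, and 69.8% to 84.9%. The median log2 change of all features was 0.00 with scaling, with scaling and without high-fat library 4, and without the filter, and between -0.20 and -0.09 leaving out 1 library. By position, intronic calls (509) were 327 with scaling, 271 without high-fat library 4 and 211 with both. Intergenic calls (246) were 148 without that library and 152 with both, multi-part ones (161) 81 and 72, and partly exonic ones (109) 69 and 47. The 51 calls in 3′ UTRs were 31 and the 9 other exonic ones 5 without that library. List features gave 26 higher calls, 47 with scaling, and 36 lower ones, 17 with scaling, 19 without high-fat library 4 and 14 with both. The ribosomal locus share differed by 0.317 percentage points and by -2.53 without high-fat library 4. Causes were not tested.

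For the 98 named features that were called, 1628 alternative values were computed: 1239 kept the call, 389 lost it and none changed direction. The 4 named features that were tested and not called, Malat1, Neat1, Gas5 and Rn7sk, gained no call in 64 alternative values, 4 of which had the other sign. No filter ended 60 of these calls. No paired analysis was possible because replicate numbers follow sample order and pair nothing. At low depth the limit is counting error: 1 read on 1 kb was worth 0.0321 to 0.0580 FPKM.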
